A study of Mus musculus with 6 samples.

Results

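The 8 genes Rgs1, Rgs2, Rgs3, Rgs10, Rgs11, Rgs14, Rgs16 and Rgs19 encode regulators of G protein signaling. They were chosen by symbol, from the measured values of these libraries, because several of them mark groups of T cells here, so their levels are given as a description with no test. They are 8 of the 32227 genes in the matrices and 8 of a list of 23 genes of the Rgs family. The study asked what loss of PD-1, the inhibitory receptor encoded by Pdcd1, does to CD8 T cells of the mouse thymus, spleen and tumor, and measured them by PIPseq single-cell RNA sequencing. Each of the 6 libraries was a separate combination of tissue and genotype label, so every group held 1 library. No test between labels within a tissue was possible, and none over the tissues was run.

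All mice were adult and on the C57BL/6 background. The Pdcd1 cKO mice carried floxed Pdcd1 alleles and E8I-Cre, a transgene driven by Cd8a regulatory sequence that acts after positive selection, so cells that never reached the CD8 stage should keep the gene. The Pdcd1fl/fl controls carried the same floxed alleles and no Cre. Thymic and splenic libraries came from 1 untreated mouse each, after selection with a CD8a+ T cell kit. Tumor libraries came from pooled mice bearing B16-OVA, a melanoma line that makes ovalbumin, on day 12 after injection, after removal of dead cells and selection with CD8 (TIL) microbeads.

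The thymic library labelled Pdcd1fl/fl held 6389966 UMIs, single RNA molecules counted by their tag, in 1067 barcodes, and the one labelled Pdcd1 cKO held 19304377 in 2674. The splenic libraries held 5935926 UMIs in 6929 barcodes and 8964626 in 4963, in the same order. The tumor libraries held 9401747 UMIs in 457 barcodes and 7924590 in 561. The filter of the study (at least 500 genes and 1000 UMIs and at most 20% mitochondrial UMIs) kept 1067 and 2635 thymic, 1478 and 4928 splenic and 456 and 561 tumor cells, so it took away 5451 barcodes of the splenic library labelled Pdcd1fl/fl. Cells with CD8 RNA, meaning at least 1 UMI of Cd8a or Cd8b1, the genes of both CD8 chains, numbered 589 and 1753 (thymic), 863 and 3885 (splenic) and 344 and 512 (tumor). Their median depth was 4353 and 5486 UMIs, 1374 and 1686, and 13497 and 9580, in the same order. The splenic libraries shared 2 barcodes, none of them after the filter, and no other pair of libraries shared any.

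RNA of Pdcd1 itself went against the labels in 2 of the 3 tissues. In thymic cells with CD8 RNA, Pdcd1 stood at 2.46 CPM (9 UMIs) under the Pdcd1fl/fl label and at 9.16 CPM (116 UMIs) under the Pdcd1 cKO label, where CPM is counts-per-million, the UMIs of a gene scaled to all UMIs of the same cells. Splenic values were 0.724 (1 UMI) and 12.2 (89 UMIs), and tumor values were 105 (702 UMIs) and 113 (799 UMIs). The libraries labelled Pdcd1 cKO were thus the higher ones in thymus and spleen, and the tumor libraries were close. PIPseq counts tags near the 3′ end and the sources used here do not say which exons the floxed allele loses, so RNA of a recombined allele could still be counted. The study reports loss of PD-1 protein from CD8 T cells of thymus and tumor by flow cytometry, less binding of a PD-1 antibody to splenic CD8 T cells, and more effector proteins, as the labels say. Such protein data were not part of the files used here. Libraries are therefore called by their labels throughout. Every ratio between labels is the library labelled Pdcd1 cKO over the library labelled Pdcd1fl/fl of the same tissue. Intervals, where given, are at 95% and cover counting error only.

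The labelled cell type held up in part. The T cell list (Cd3d, Cd3e, Cd3g, Trac, Trbc2 and Lck, all 6 with UMIs in all libraries) summed to 4745 and 4464 CPM in thymic, 3520 and 4673 in splenic and 2512 and 4181 in tumor cells with CD8 RNA. Cd4 and Foxp3 together reached at most 3.82 CPM, in the splenic library labelled Pdcd1 cKO. Tumor cells with CD8 RNA also carried the melanoma list (Pmel, Mlana, Dct, Tyrp1 and Tyr, 5 of 5 with UMIs) at 6930 and 3949 CPM, led by Dct at 2609.9 and Pmel at 1410.3. For the tumor, some values, not all, are therefore repeated in a stricter set of 276 and 457 cells. These cells had CD8 and CD3 RNA and more UMIs of those genes than of the melanoma and macrophage lists together. Their melanoma list summed to 238 and 162 CPM.

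Regulators of G protein signaling end signals of receptors that work through heterotrimeric G proteins. Most of them speed up the hydrolysis of GTP on the alpha subunit of the Gi or Gq family, which lets the alpha subunit bind beta and gamma again and stops the signal to adenylyl cyclase, phospholipase C or PI3 kinase gamma. In lymphocytes the receptors concerned include chemokine and sphingosine phosphate receptors, so these proteins are known for setting how long a T cell moves toward, or stays in, a tissue.

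Rgs1, which shortens Gi signals of chemokine receptors and is known to hold lymphocytes in tissue, was more abundant in the library labelled Pdcd1 cKO in thymus and spleen. Thymic cells with CD8 RNA held 54.2 CPM (198 UMIs) under the Pdcd1fl/fl label and 188 (2380 UMIs) under the other. Splenic cells held 183 CPM (252 UMIs) and 401 (2935 UMIs), and tumor cells 62.7 (418 UMIs) and 91.3 (646 UMIs). Within each tissue the interval of the library labelled Pdcd1 cKO lay wholly above that of its partner. The log2 ratio was 1.79 (1.58 to 2.01), or 3.47-fold, for thymic cells, 1.13 (0.95 to 1.33) for splenic and 0.54 (0.36 to 0.72) for tumor cells. The tumor ratio was 0.01 (-0.18 to 0.20) in the stricter cells, at 105 and 106 CPM, so there the difference was not detectable.

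Rgs16, a small family member that acts on Gi and Gq, had the largest ratios in thymus and spleen of the members with UMIs in both libraries. Thymic cells with CD8 RNA held 4.10 CPM (15 UMIs) and 22.3 (283 UMIs), and splenic cells 5.07 (7 UMIs) and 51.5 (377 UMIs). The libraries labelled Pdcd1 cKO were the high ones and their intervals did not meet those of their partners. These values gave log2 ratios of 2.45 (1.70 to 3.30), or 5.45-fold, in the thymus and 3.34 (2.29 to 4.67), or 10.2-fold, in the spleen, which moved to 2.61 with all deposited barcodes. In the tumor both libraries were high, at 43.3 CPM (289 UMIs) and 70.0 (495 UMIs), with a log2 ratio of 0.69 (0.48 to 0.90) and of 0.31 in the stricter cells.

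Rgs2, a regulator with a preference for Gq, went in different directions by tissue. It stood at 179 CPM (656 UMIs) and 370.1 (4687 UMIs) in thymic, 286 (395 UMIs) and 366 (2680 UMIs) in splenic and 163 (1088 UMIs) and 118 (833 UMIs) in tumor cells with CD8 RNA. The library labelled Pdcd1 cKO was the higher one in thymus and spleen and the lower one in the tumor, and no pair of intervals met. Log2 ratios were 1.04 (0.93 to 1.16) for thymic, 0.36 (0.20 to 0.51) for splenic and -0.47 (-0.60 to -0.34) for tumor cells. In the thymus the 2-fold mark was missed when 2 UMIs of the CD8 genes were asked for, at 0.97, and when cells were thinned to 1000 UMIs, at 0.90. Stricter tumor cells gave 265 and 148 CPM, a log2 ratio of -0.84.

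Rgs10, a short protein of little more than an RGS domain that acts on Gi, was lower in the libraries labelled Pdcd1 cKO in spleen and tumor. Splenic cells with CD8 RNA held 339.7 CPM (469 UMIs) and 215 (1573 UMIs), a log2 ratio of -0.66 (-0.81 to -0.51). Tumor cells held 49.3 (329 UMIs) and 28.4 (201 UMIs), with a ratio of -0.80 (-1.06 to -0.54) that was -1.04 in the stricter cells and -0.02 (-0.96 to 0.96) after thinning. The thymic libraries overlapped, at 210.1 CPM (768 UMIs) and 203 (2566 UMIs), and their ratio of -0.05 (-0.17 to 0.07) turned to 0.15 when mitochondrial, ribosomal protein and Malat1 counts were left out of the total and to 0.19 with median-of-ratios scaling.

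Rgs3, which acts on Gi and Gq, and Rgs14, which binds Gi alpha subunits through an RGS domain and a separate GoLoco motif, had fewer UMIs. Thymic Rgs3 stood at 19.2 CPM (70 UMIs) and 19.3 (245 UMIs), splenic at 23.9 (33 UMIs) and 45.1 (330 UMIs) and tumor at 13.6 (91 UMIs) and 22.2 (157 UMIs). Its thymic log2 ratio was 0.01 (-0.37 to 0.42), with intervals that overlapped widely, and its splenic ratio 0.91 (0.40 to 1.48). In the tumor it was 0.70 (0.32 to 1.09), and 0.40 without the cell richest in Rgs3 in each library, since 36 of the 157 UMIs came from 1 cell. Stricter tumor cells gave 7.55 (28 UMIs) and 23.0 (119 UMIs), a log2 ratio of 1.61. Rgs14 stood at 7.66 (28 UMIs) and 9.40 (119 UMIs) in thymic, 11.6 (16 UMIs) and 23.2 (170 UMIs) in splenic and 3.60 (24 UMIs) and 5.79 (41 UMIs) in tumor cells. The splenic pair did not overlap and gave 1.00 (0.26 to 1.84), which fell below 2-fold, to between 0.81 and 0.92, in 7 other ways of filtering, grouping, scaling or thinning the cells. Thymic and tumor Rgs14 overlapped, with ratios of 0.29 (-0.31 to 0.94) and 0.69 (-0.07 to 1.48).

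Rgs19, a Gi regulator also known as G alpha interacting protein, did not differ between labels beyond counting error in any tissue. Its levels were 43.0 CPM (157 UMIs) and 36.6 (464 UMIs) in thymic, 64.5 (89 UMIs) and 66.5 (487 UMIs) in splenic and 29.4 (196 UMIs) and 30.8 (218 UMIs) in tumor cells. All 3 pairs of intervals overlapped. The log2 ratios were -0.23 (-0.49 to 0.04), which was 0.01 with median-of-ratios scaling, 0.04 (-0.28 to 0.39), which was -0.05 with it, and 0.07 (-0.22 to 0.35).

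Counted at 2-fold among genes with at least 50 UMIs over both libraries, 3 of 7 members were higher in the thymic library labelled Pdcd1 cKO (Rgs1, Rgs2 and Rgs16), where 8.77% of 10827 genes differed by 2-fold in either direction. In the spleen 3 of 7 were higher (Rgs1, Rgs14 and Rgs16), beside 9.66% of 9074 genes. In the tumor 1 of 8 was lower (Rgs11), beside 12.8% of 10435 genes. Rgs11 was the member that missed the 50 UMIs in thymus and spleen. The median log2 ratio of all counted genes was -0.17 for thymic, 0.18 for splenic and -0.16 for tumor cells. With median-of-ratios scaling these medians were 0.07, 0.08 and -0.03, and the members at 2-fold or more were the same in thymus and tumor, while the spleen had Rgs1 and Rgs16 alone. Beside them 8.35% of thymic, 8.63% of splenic and 11.6% of tumor genes were 2-fold apart under that scaling.

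**Figure D1:**
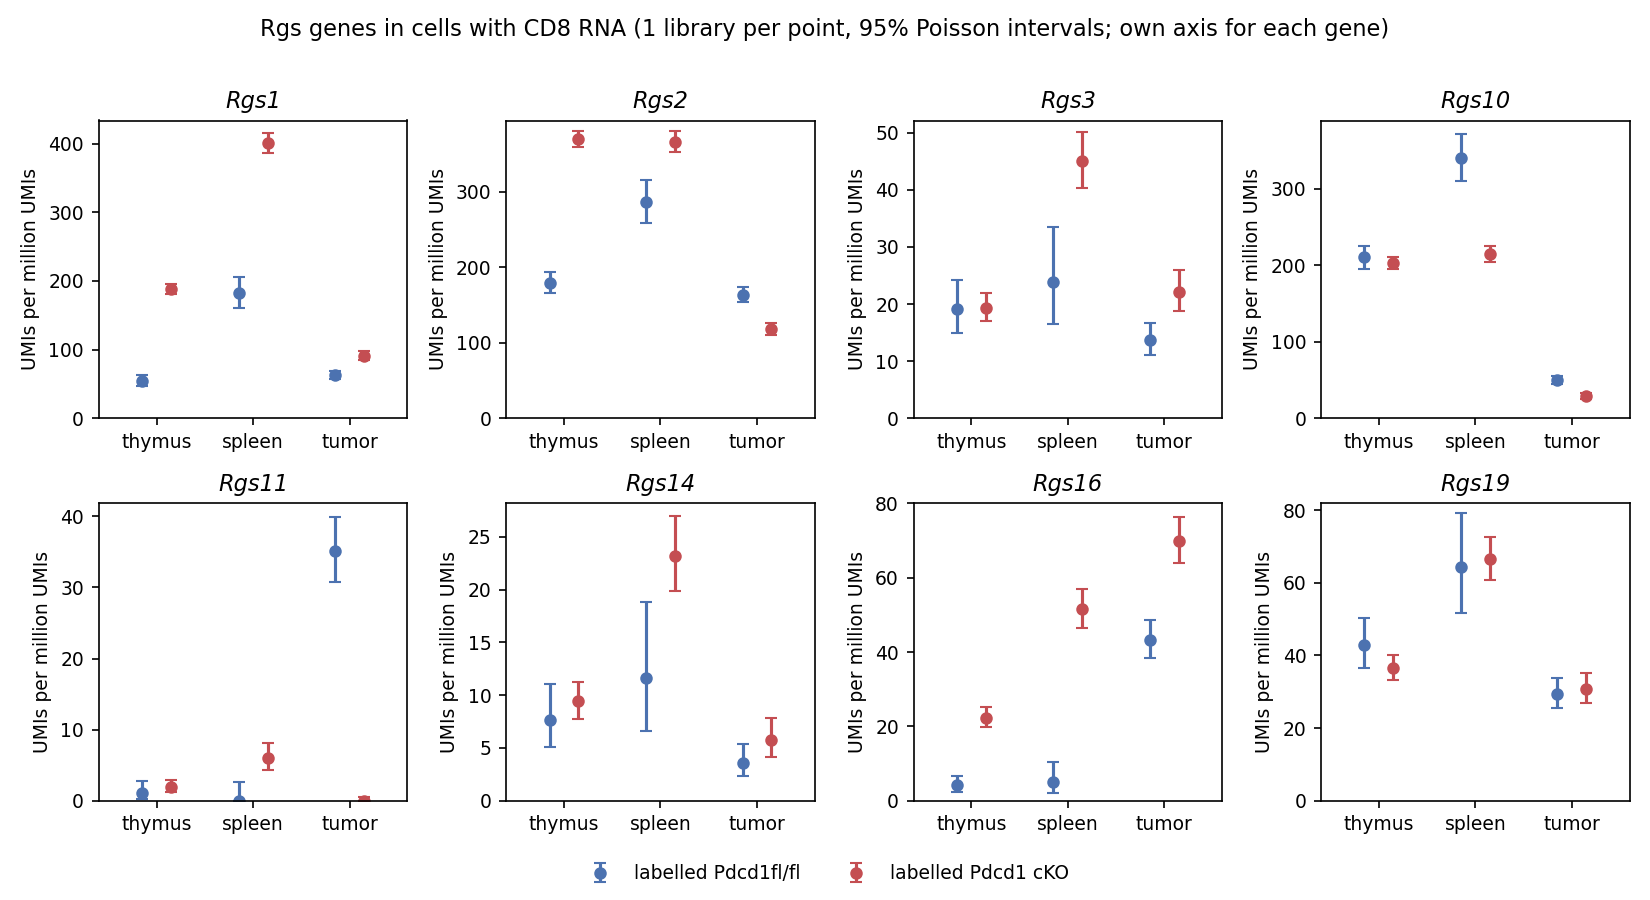
CPM (counts-per-million UMIs) of each of the 8 genes in cells with CD8 RNA (vertical axis, from 0, own scale for each gene) by tissue, with 1 point per library, colored by label, and 95% Poisson intervals as bars. Splenic Rgs1 stood at 183 and 401 and splenic Rgs16 at 5.07 and 51.5 CPM under the Pdcd1fl/fl and Pdcd1 cKO labels, while Rgs11 reached 35.1 in 1 tumor library and 0 in the other.

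Other cell types and states moved with these differences, and their part in them was not tested. The 11 genes of the cycling list, all with UMIs in each library, summed to 2304 and 1231 CPM in thymic, 109 and 80.0 in splenic and 879 and 1059.5 in tumor cells with CD8 RNA, led by Pclaf at 468 and 240.3 in the thymus. The 10 stress genes, all with UMIs, summed to 739 and 680.5 in thymic, 1755 and 4652 in splenic and 740.3 and 429 in tumor cells, and Junb was the most abundant in each library, at 658 and 1224 in the spleen. Of the other stress genes, the splenic Hspa1a moved from 23.9 to 604 CPM. The immature thymocyte list (Dntt, Rag1, Rag2, Ptcra and Il2ra) summed to 541 and 367 in the thymus, led by Dntt at 423 and 278, with all 5 genes present. The macrophage or monocyte list, 10 of 10 present, summed to 82.2 and 522 in the tumor, led by Lyz2 at 20.2 and 146.

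Lists of rarer types gave these sums for cells with CD8 RNA. Gamma delta genes (Trdc, Trgc1 and Trdv4, the last at 0 in all libraries) reached 234 and 171 CPM in the thymus, led by Trdc, and at most 12.2 elsewhere. NK genes, led by Klrk1 in each library, were at 16.7 and 30.7 in thymic, 39.1 and 101 in splenic and 106 and 139 in tumor cells, with Ncr1 at 0 in the thymic and splenic libraries labelled Pdcd1fl/fl. Granulocyte genes had no UMI in the thymic and splenic libraries labelled Pdcd1fl/fl and reached 83.6 CPM, led by Mpo, in the splenic library labelled Pdcd1 cKO. Stromal genes were at 67.0 and 11.1 in the thymus, led by Dcn, and at 136 and 1.27 in the tumor, led by Col1a1 in the first. Dendritic genes reached at most 20.7, B cell genes at most 22.9 and erythroid genes at most 17.7 CPM in any library.

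Cells of the thymus that lacked CD8 RNA also showed Rgs1, Rgs2 and Rgs16 higher under the Pdcd1 cKO label. In these 478 and 882 cells Rgs1 stood at 28.2 and 142 CPM, a log2 ratio of 2.33 (2.00 to 2.69), and Rgs2 at 177 and 488, a ratio of 1.47 (1.33 to 1.61). Both were higher under the Pdcd1 cKO label with no overlap of intervals. A cell with no UMI of Cd8a or Cd8b1 may still have made them below detection. Rgs16 had 0 UMIs under the Pdcd1fl/fl label and 31 under the other, a log2 ratio of at least 2.12 against a floor of 3 UMIs. Rgs10 was lower, at 118 and 83.0 CPM, with a ratio of -0.51.

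Within these cells the difference in Rgs1 and Rgs2 was present in each group set apart by a marker. Cells with Il2ra, the alpha chain of the interleukin-2 receptor and a mark of early thymocytes (149 and 411 cells), held Rgs1 at 34.4 and 103 CPM, a log2 ratio of 1.59, and Rgs2 at 192 and 461, a ratio of 1.26. Cells with Dntt, the terminal transferase of receptor gene rearrangement, and no Il2ra (253 and 308 cells) held Rgs1 at 14.4 and 114, a ratio of 2.98 (2.35 to 3.68), and Rgs2 at 160.03 and 426, a ratio of 1.41. Cells with Trdc, the constant gene of the delta chain, and no Dntt (40 and 68 cells) held Rgs1 at 58.8 and 189, a ratio of 1.68, and Rgs2 at 112 and 445, a ratio of 1.99. In each of the 3 groups the library labelled Pdcd1 cKO was the high one. In the 46 and 113 cells with no UMI of any of these markers, a group chosen after seeing the data, Rgs1 was at 101 and 520.5 and Rgs2 at 285 and 962 CPM, with ratios of 2.37 and 1.75.

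Among thymic cells with CD8 RNA, groups made from other genes gave like ratios for Rgs1. Cells poor in Ccl5, a chemokine of effector and memory CD8 T cells, with under 1 UMI per 1000 (515 and 1451 cells, a group chosen after seeing the data), held Rgs1 at 40.2 and 119.6 CPM, a log2 ratio of 1.57. Ccl5-rich cells, with at least 3 per 1000 (44 and 238 cells, chosen in the same way), held 225 and 728, a ratio of 1.70. Ccl5 itself stood at 401 and 1111 CPM in all thymic cells with CD8 RNA. In cells with at least 3 UMIs of the cycling list (376 and 592 cells) Rgs1 was at 30.5 and 87.6, a ratio of 1.52, and in cells with none (88 and 368 cells) at 102 and 285, a ratio of 1.49. In all 4 groups Rgs1 was the higher under the Pdcd1 cKO label.

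For Rgs2 the 4 ratios were 0.99 in Ccl5-poor, 1.20 in Ccl5-rich, 0.99 in cycling and 0.68 in non-cycling cells. Rgs16 gave 1.86 from 11 and 131 UMIs in Ccl5-poor cells, with 5 of the 11 in 1 cell, and 2.07 from 4 and 138 UMIs in Ccl5-rich cells. In cycling cells it gave 3.62 from 3 and 83 UMIs. Its ratio in non-cycling cells was 0.04 (-1.14 to 1.44), where 20.3 CPM (7 UMIs) and 20.9 (40 UMIs) did not differ detectably at this depth. Of those 7 UMIs 5 lay in 1 cell, and without the richest cell on each side, a setting chosen after seeing the data, Rgs16 was at 5.88 (2 UMIs) and 18.3 (35 UMIs), a ratio of 1.64 (-0.32 to 4.74). Rgs10 stood at 304 and 128 CPM in Ccl5-rich cells, a ratio of -1.25 (-1.73 to -0.74), while its ratio in Ccl5-poor cells was 0.06 (-0.06 to 0.18).

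**Figure D2:**
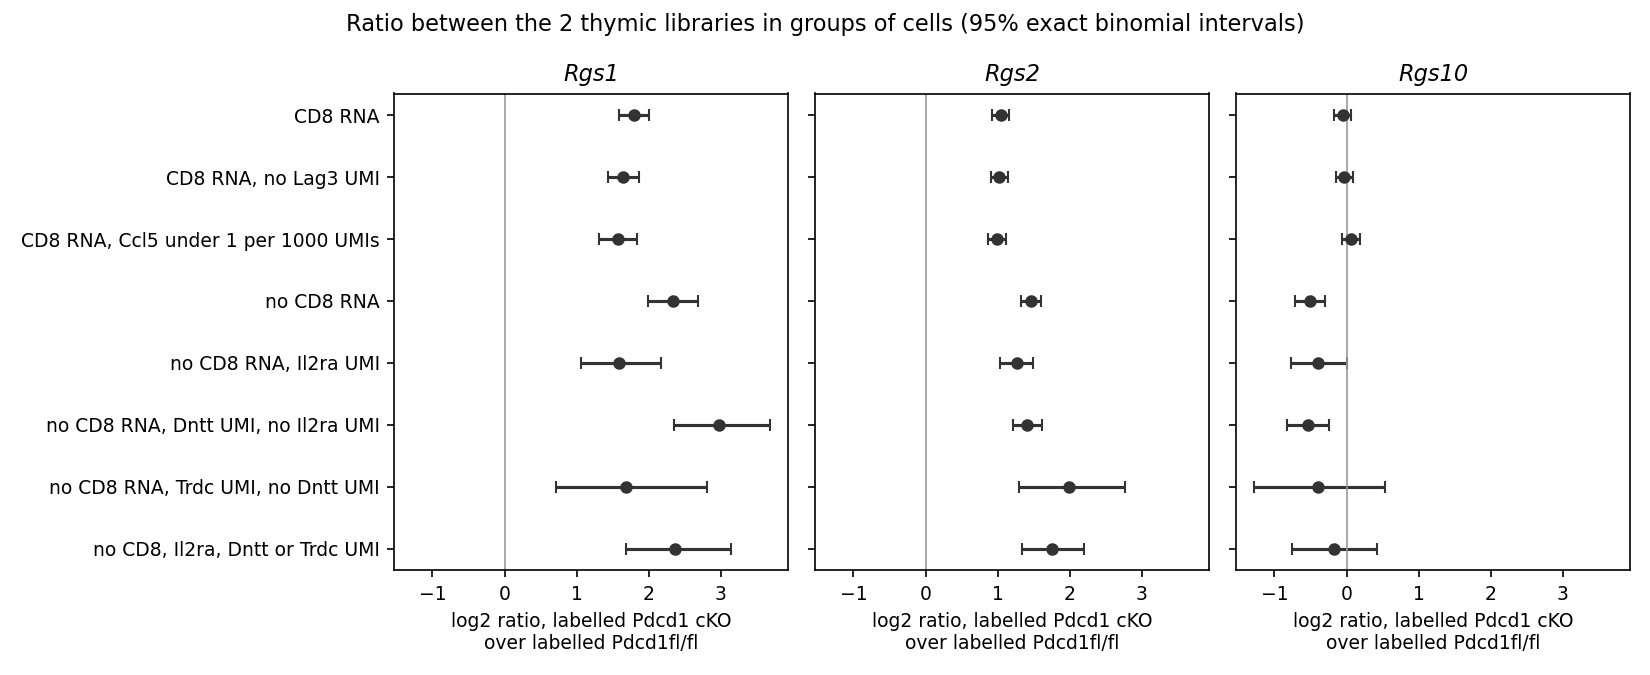
Log2 ratio of the thymic library labelled Pdcd1 cKO over the one labelled Pdcd1fl/fl (horizontal axis) in groups of thymic cells, with and without CD8 RNA, as points with 95% exact binomial intervals as bars. Rgs1 and Rgs2 lie to the right of 0 in each group drawn, with Rgs1 at 2.33 and Rgs2 at 1.47 in cells without CD8 RNA.

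Splenic cells without CD8 RNA also held more Rgs1 under the Pdcd1 cKO label, at 170.2 and 421 CPM, a log2 ratio of 1.31. Rgs16 was at 13.1 and 38.8 there, a ratio of 1.57, and Rgs10 at 333 and 238, a ratio of -0.48. Rgs3 was at 28.6 and 62.5, a ratio of 1.13, and 18 of its 100 UMIs under the Pdcd1 cKO label lay in 1 cell. Each pair had the order seen in splenic cells with CD8 RNA. In Ccl5-rich splenic cells with CD8 RNA (395 and 2552 cells) Rgs16 rested on 1 UMI in the library labelled Pdcd1fl/fl, at 1.61 and 60.7 CPM, a ratio of 5.24 (2.75 to 10.55), and Rgs1 was at 251 and 467, a ratio of 0.90. Ccl5-poor cells (260 and 383 cells) gave 0.84 for Rgs1, 0.74 for Rgs2 and 1.31 (-0.32 to 3.35) for Rgs16.

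Of the members with at least 50 UMIs, Rgs16 and Rgs10 differed most between thymic cells with and without CD8 RNA under the Pdcd1 cKO label. Rgs16 stood at 22.3 CPM in cells with CD8 RNA and 4.78 in cells without, a log2 ratio of 2.22, and Rgs10 at 203 and 83.0, a ratio of 1.29. Under the Pdcd1fl/fl label thymic Rgs10 stood at 210.1 and 118, a ratio of 0.83, and Rgs1 ratios were 0.94 there and 0.41 in the partner library. Both thymic libraries thus held more Rgs10 and Rgs1 in cells with CD8 RNA. Of the counted members, 0 of 5 were at least 2-fold apart in the thymic library labelled Pdcd1fl/fl, beside 3.64% of all counted genes, and 2 of 7 (Rgs10 and Rgs16) in its partner, beside 7.32%. In the spleen it was 0 of 5, beside 2.00%, and 0 of 7, beside 2.40%.

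Tumor cells without CD8 RNA held more melanoma and macrophage RNA, and the part of these cell types in the contrast was not tested. There 2 of 7 members were at least 2-fold higher in cells with CD8 RNA under the Pdcd1fl/fl label (Rgs2 and Rgs16), beside 14.7% of genes in either direction, and 2 of 6 under the other (Rgs3 and Rgs16), beside 29.5%. Rgs3 there rested on 157 UMIs, 36 of them in 1 cell, against 8, and its ratio was 1.21 (0.05 to 2.68) without the richest cell on each side, a setting chosen after seeing the data. Under the Pdcd1fl/fl label Rgs3 had the opposite sign, at 13.6 and 21.7 CPM, a ratio of -0.67 (-1.16 to -0.17). Rgs16 stood at 43.3 CPM in cells with CD8 RNA and 8.11 in cells without under the Pdcd1fl/fl label, a log2 ratio of 2.42, and at 70.0 and 11.8 under the other, a ratio of 2.57. Rgs2 was at 163 and 60.1 in the first library, a ratio of 1.44. Both tumor libraries thus put Rgs16 in the cells with CD8 RNA.

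Set against the melanoma cells, the stricter T cells of the tumor held more Rgs1, Rgs2 and Rgs16. In the library labelled Pdcd1fl/fl (276 T cells and 82 cells with at least 5 UMIs of the melanoma list, no CD8 RNA and fewer macrophage UMIs) Rgs1 was at 105 and 11.5 CPM. Rgs16 was at 73.9 and 8.62, a log2 ratio of 3.10, and Rgs2 at 265 and 45.1, a ratio of 2.55. Rgs3 had the other order there, at 7.55 and 23.0, a ratio of -1.61, but not in the partner library, at 23.0 and 11.3 (7 UMIs), a ratio of 1.03 (-0.06 to 2.38). In the library labelled Pdcd1 cKO (457 and 22 cells) the ratios were 2.46 for Rgs1, 3.50 for Rgs16 and 1.52 for Rgs2, the last of which was 2.30 without the richest cell on each side, a setting chosen after seeing the data.

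Shares of cells with a UMI, each cell thinned to 1000 UMIs, gave the same order between labels as the levels for Rgs1, Rgs2, Rgs10 and Rgs16. Rgs1 was found in 7.64% (5.63 to 10.1) and 18.2% (16.4 to 20.1) of thymic cells with CD8 RNA, in 13.9% (11.7 to 16.4) and 28.2% (26.8 to 29.7) of splenic and in 7.56% (4.996 to 10.9) and 8.79% (6.48 to 11.6) of tumor cells, with exact Clopper-Pearson intervals, so the tumor shares overlapped. Rgs2 was found in 16.6% and 29.6%, 22.6% and 27.7%, and 13.95% and 11.3%, and Rgs10 in 20.5% and 19.6%, 26.5% and 18.2%, and 4.07% and 3.71%. For Rgs16 the thymic shares were 0.340% (0.0411 to 1.22) and 3.19% (2.42 to 4.13), the splenic 0.463% (0.126 to 1.18) and 4.32% (3.71 to 5.01) and the tumor shares 5.23% (3.13 to 8.14) and 8.40% (6.14 to 11.1). Melanoma cells stood in for a type with less of these genes, since no type known to lack them was at hand, and B16 cells may make some of them. They gave 1.22% (0.0309 to 6.61) for Rgs1, 4.88% (1.34 to 12.02) for Rgs2 and 1.22% (0.0309 to 6.61) for Rgs16 in the tumor library labelled Pdcd1fl/fl at a median depth of 22480 UMIs, against 9.42% (6.25 to 13.5), 16.7% (12.5 to 21.6) and 6.52% (3.91 to 10.1) in its stricter T cells at a median of 11096.5. The intervals of Rgs2 did not meet and those of Rgs1 and Rgs16 did, although their levels over all UMIs did not.

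Lag3, an inhibitory receptor of activated and exhausted T cells, had 0 UMIs in the 589 thymic cells with CD8 RNA labelled Pdcd1fl/fl and 82 in the 1753 of the other label, 2 and 91 among splenic and 515 and 766 among tumor cells. Rgs16 and Rgs1 were higher in cells with a Lag3 UMI in the 2 libraries from untreated mice that held enough of them. In the thymic library labelled Pdcd1 cKO (61 cells with Lag3, 1692 without) Rgs16 was at 176 and 17.9 CPM, a log2 ratio of 3.30 (2.87 to 3.71), and Rgs1 at 836 and 169, a ratio of 2.31 (2.13 to 2.48). Rgs3 stood at 39.0 and 18.8, a ratio of 1.06, Rgs2 at 529 and 365, a ratio of 0.53, and Rgs10 at 106 and 205, a ratio of -0.96. Members counted as at least 2-fold higher were 3 of 7 (Rgs1, Rgs3 and Rgs16), beside 16.8% of genes in either direction. Without the richest cell on each side, a setting chosen after seeing the data, Rgs3 fell below 2-fold, at 0.96 (-0.01 to 1.80).

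The splenic library labelled Pdcd1 cKO (72 and 3813 cells) had the same order for these genes. Rgs16 was at 371 and 44.8 CPM, a log2 ratio of 3.05, but 29 of its 56 UMIs in cells with Lag3 lay in 1 cell. Without the richest cell on each side, chosen after seeing the data, it was at 203 and 43.9, a ratio of 2.21 (1.58 to 2.77). Rgs1 was at 1105 and 386, a ratio of 1.52. Rgs10 was at 132 and 217, a ratio of -0.71, and Rgs2 at 410.3 and 365, a ratio of 0.17. Here 2 of 7 members (Rgs1 and Rgs16) were at least 2-fold higher, beside 22.2% of genes.

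In the tumor library labelled Pdcd1fl/fl the same split gave other values for Rgs1, Rgs2 and Rgs16 in the stricter cells. Cells with a Lag3 UMI of the library labelled Pdcd1fl/fl (199 and 145 cells) held Rgs1 at 91.5 and 36.7, Rgs2 at 237 and 96.6 and Rgs16 at 63.0 and 25.6 CPM, ratios of 1.32, 1.30 and 1.30, and Rgs10 at 27.9 and 68.6, a ratio of -1.30. That is 3 members at least 2-fold higher and 1 lower of 7, beside 35.3% of genes. In the stricter cells (190 and 86) Rgs1 was at 101 and 120.4, Rgs2 at 258 and 286 and Rgs16 at 70.6 and 84.0, ratios of -0.26, -0.15 and -0.25, with intervals that held 0, so none of the 3 genes differed detectably, while Rgs10 was at 27.5 and 120.4, a ratio of -2.13 (-2.57 to -1.70). In the library labelled Pdcd1 cKO (345 and 167 cells) 0 of 6 members were 2-fold apart, beside 12.8% of genes, with Rgs1 at 82.1 and 111, a ratio of -0.43. Its stricter cells (329 and 128) gave Rgs16 at 88.6 and 100.3, a ratio of -0.18 (-0.48 to 0.13), and Rgs10 at 22.3 and 31.2, a ratio of -0.48 (-1.05 to 0.11).

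**Figure D3:**
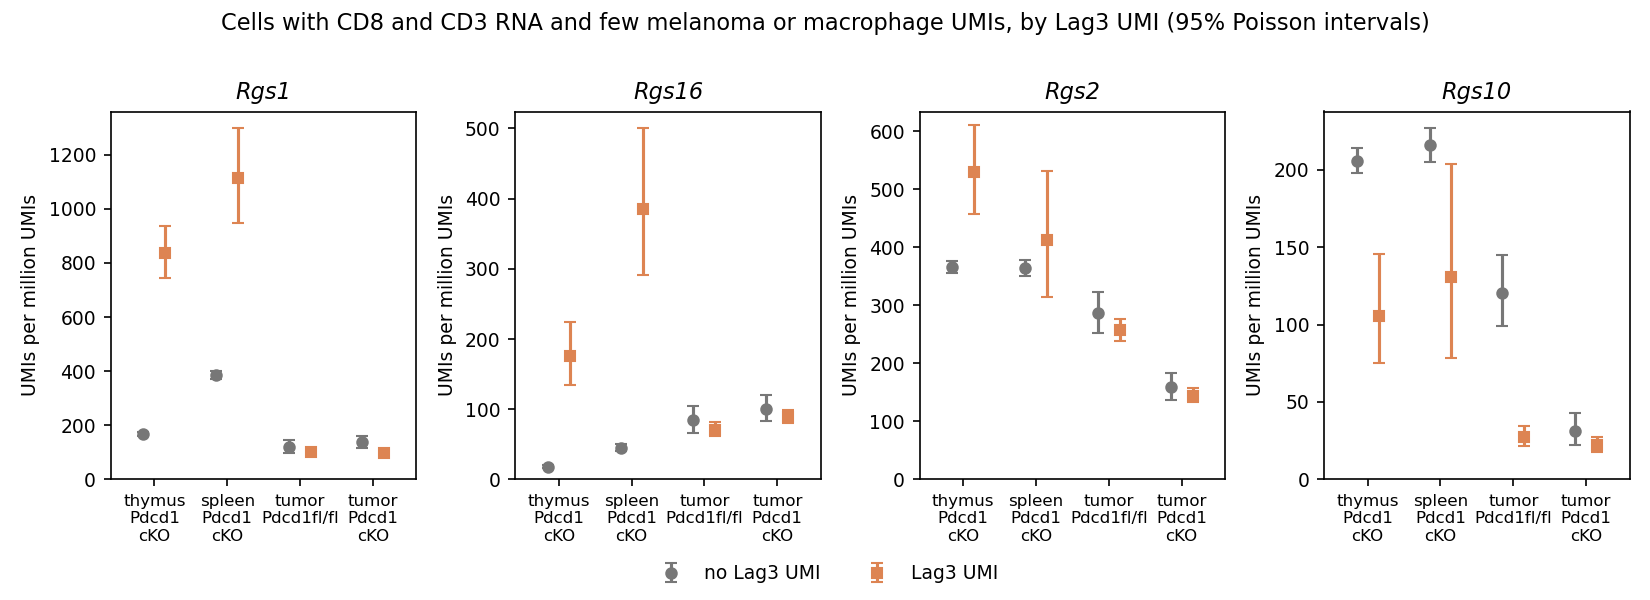
CPM (counts-per-million UMIs, vertical axis, from 0) in cells with CD8 and CD3 RNA and few melanoma or macrophage UMIs, split by whether a Lag3 UMI was present, by library, with 95% Poisson intervals as bars. Rgs16 was higher with Lag3 in the thymic and splenic libraries labelled Pdcd1 cKO, and not in the tumor libraries, where it stood at 70.6 and 84.0 and at 88.6 and 100.3 CPM with and without Lag3.

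Splits by other genes gave values that depended on the genes chosen. Cells with Ccl5 and no Ccr7, the receptor that leads naive cells to lymph nodes, against cells with Ccr7 and no Ccl5 (405 and 519 cells of the thymic library labelled Pdcd1 cKO) held Rgs10 at 103 and 316 CPM, a log2 ratio of -1.62, Rgs1 at 267 and 152, a ratio of 0.82, and Rgs16 at 41.1 and 16.7, a ratio of 1.30. Rgs19 was lower in the Ccl5 cells as well, at 29.6 and 44.7, a ratio of -0.59 (-0.98 to -0.21). Rgs10 was lower there too in the thymic library labelled Pdcd1fl/fl, at 156 and 291, a ratio of -0.90, and in the tumor library of that label, at 37.1 and 95.1, a ratio of -1.36. Rgs16 was lower in the Ccl5 cells of that tumor library as well, at 42.1 and 82.6, a ratio of -0.97 (-1.53 to -0.38), where Rgs1 gave -0.01. The value of 82.6 rested on 33 UMIs in 33 cells, 9 of them in 1 cell. These tumor values came from all cells with CD8 RNA, which carried melanoma RNA, and not from the stricter ones. The part of melanoma RNA in them was not tested. In the thymic library labelled Pdcd1fl/fl Rgs16 was at 4.43 (3 UMIs) and 9.73 (10 UMIs), a ratio of -1.14 (-3.64 to 0.82), and Rgs1 gave 0.13 (-0.47 to 0.73). With Nkg7, a protein of cytotoxic granules, in place of Ccl5 and Lef1, a transcription factor of naive T cells, in place of Ccr7, the thymic ratio of Rgs10 under the Pdcd1 cKO label was 0.01 (-0.20 to 0.21), at 154 and 153, so with these genes no difference was detectable. Rgs1 was at 437 and 69.8 and Rgs16 at 59.4 and 6.02 in that split, ratios of 2.64 and 3.30. Under the Pdcd1fl/fl label the same split gave 0.29 (-0.08 to 0.64) for Rgs10 and 2.33 for Rgs1. Rgs16 there was at 22.7 (10 UMIs) and 2.84 (3 UMIs), 8.01-fold with a log2 interval of 1.04 to 5.50. The interval with Ccl5 and Ccr7 was -3.64 to 0.82, so that split gave Rgs16 no direction in this library. In each split the richest cell held 5 of the 10 UMIs.

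Cycling cells held less Rgs10 in the libraries with enough of them, the tumor library labelled Pdcd1 cKO being the least clear. In cells with at least 3 cycling UMIs and cells with none it was at 170.4 and 360.1 CPM in the thymic library labelled Pdcd1fl/fl, a log2 ratio of -1.08, and at 145 and 266 in its partner, a ratio of -0.88. Tumor values were 30.2 and 147 under the Pdcd1fl/fl label (228 and 55 cells), a ratio of -2.29, and 25.7 and 46.1 under the other, a ratio of -0.84. Of the 78 UMIs behind the value of 147, 28 lay in 1 cell, and without the richest cell on each side the tumor ratios were -1.69 (-2.16 to -1.20) and -0.57 (-1.34 to 0.31). In the stricter cells they were -2.90 (-3.38 to -2.41) and -0.90 (-1.75 to 0.06), and both settings were chosen after seeing the data. The splenic library labelled Pdcd1 cKO, with 28 cycling cells in which 3 UMIs came to 23.1 CPM, had 84.6 and 222, a ratio of -1.39. Rgs16 was at 269 and 45.5 there, but 29 of the 35 UMIs in cycling cells lay in 1 cell, and without the richest cell on each side the ratio was 0.26 (-1.20 to 1.40), so no difference was detectable. Rgs1 was lower in cycling thymic cells, with ratios of -1.74 and -1.70 in the 2 libraries. Cycling cells were also deeper, at medians of 5889 and 3444.5 UMIs in the thymic library labelled Pdcd1fl/fl and 7011.5 and 4837.5 in its partner. Medians were 3014.5 and 1673 in the splenic library labelled Pdcd1 cKO and 15914.5 and 8064 in the tumor library labelled Pdcd1fl/fl. The part of depth was not tested.

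Nr4a1, an early gene of T cell receptor signals, marked cells with less Rgs1 in the thymic libraries. Over cells without it, cells with an Nr4a1 UMI gave Rgs1 ratios of -0.87 and -1.09 in the thymic libraries labelled Pdcd1fl/fl and Pdcd1 cKO and -0.11 in the splenic library labelled Pdcd1 cKO. Thymic cells with Nr4a1 were also deeper, at medians of 5920 and 3904 UMIs and of 6638 and 4995.5, and the part of depth was not tested. For Rgs16 the ratio was -1.43 in the thymic library labelled Pdcd1 cKO, while the splenic library of that label had 0.17 (-0.13 to 0.47) and the thymic library labelled Pdcd1fl/fl 1.09 (-0.56 to 2.86) from 9 and 6 UMIs. Tumor ratios were -2.03 and -1.16 for Rgs1 and -1.87 and -1.96 for Rgs16, and cells with Nr4a1 were deeper there too, at a median of 28410.5 and 10727.5 UMIs under the Pdcd1fl/fl label. In the stricter tumor cells, a split chosen after seeing the data, Rgs1 gave -0.32 (-0.74 to 0.07) and 0.23 (-0.13 to 0.58) and Rgs16 0.06 (-0.39 to 0.50) and -0.45, the last with an interval that all but reached 0. The 2-fold differences of the tumor were thus absent from the stricter cells.

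Cd69, an activation and residence marker, split the cells the other way for Rgs1 in the thymic library labelled Pdcd1fl/fl, with a ratio of 0.76, while Rgs16 there gave 2.26 (0.58 to 4.16) from 10 UMIs, 5 of them in 1 cell, and 5 UMIs. Without the richest cell on each side that ratio was 2.00 (-0.36 to 4.69), from 5 and 3 UMIs. Under the Pdcd1 cKO label Rgs16 was at 26.0 and 18.6 CPM in the thymus (167 and 116 UMIs), a ratio of 0.48 (0.13 to 0.84), and at 48.0 and 61.7 in the spleen (262 and 115 UMIs), a ratio of -0.36 (-0.68 to -0.03), so the 2 tissues had opposite signs. Rgs1 gave 0.38 and -0.04 there. In the tumor library labelled Pdcd1 cKO Rgs1 was at 140.0 and 83.5 CPM, a ratio of 0.74, and of 0.63 (0.33 to 0.92) in the stricter cells, where the library labelled Pdcd1fl/fl gave -0.27 (-0.69 to 0.12). These settings too were chosen after seeing the data.

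Thymic cells with Rgs16 or Rgs2 held Rgs1 more often than cells without. After thinning, Rgs1 was found in 55.4% (41.5 to 68.7) of the 56 cells with Rgs16 and in 17.0% of the 1697 cells without it in the thymic library labelled Pdcd1 cKO. Rgs10 was found in 8.93% (2.96 to 19.6) of those with Rgs16 and 19.98% (18.1 to 22.0) of those without, which overlapped. In the splenic library of that label Rgs1 was found in 32.7% of 168 cells with Rgs16 and 28.0% of 3717 without, which overlapped, and Rgs10 in 10.7% (6.47 to 16.4) and 18.6% (17.4 to 19.9), so the splenic cells with Rgs16 held Rgs10 less often. Cells with Rgs2 held Rgs1 more often than cells without in both thymic libraries, in 17.3% of 98 cells against 5.70%, and in 24.3% of 519 against 15.6%. Under the Pdcd1 cKO label these shares overlapped in the spleen, at 29.6% of 1075 and 27.7% of 2810, and in the tumor, at 8.62% and 8.81%. Tumor cells of that label with and without Rgs16 held Rgs1 in 9.30% and 8.74%, which overlapped too.

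Rgs11, a member of the subfamily that pairs with the G protein beta 5 chain, was present in 1 tumor library and absent from the other. The tumor library labelled Pdcd1fl/fl held 337 UMIs in 194 of its 456 cells (42.5%), at most 6 in 1 cell, and the library labelled Pdcd1 cKO held 0 in 561 cells. In cells with CD8 RNA that was 35.1 CPM (234 UMIs) against 0, a log2 ratio of at most -6.37 with a floor of 3 UMIs, and at most -5.85 in the stricter cells. The share after thinning was 3.49% against 0 of 512, a count whose upper limit is a share of 0.718%.

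The level of Rgs11 in the first tumor library hardly depended on the kind of cell. It was 35.1 CPM in cells with CD8 RNA, 37.96 in cells without, 39.8 in melanoma cells and 33.4 in the stricter T cells. Across 3 groups of 152 cells by depth, the levels were 34.9, 35.5 and 36.3 CPM, and the shares of cells with a UMI were 23.7%, 35.5% and 68.4%. These values do not give Rgs11 to a cell type, and whether its UMIs were free RNA was not tested. Overlapping neighbors on the genome, Fam234a and Arhgdig, had 120 and 15 UMIs in that library and 73 and 6 in the other.

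Of the 3094 genes with at least 300 UMIs in the tumor library labelled Pdcd1fl/fl, 3 had at most 1 UMI in the other. Besides Rgs11 they were Col1a1, with 539 of its 557 UMIs in 1 cell, and Col3a1, with 297 of 310 in 1 cell. Rgs11 was the one of these spread over many cells. Outside the tumor Rgs11 had 4 and 25 UMIs in thymic cells with CD8 RNA (1.09 and 1.97 CPM), a log2 ratio of 0.85 (-0.68 to 2.83), and 0 and 44 UMIs in splenic cells (6.01 CPM in the second), a ratio of at least 1.47. Splenic cells without CD8 RNA held 3 and 5 UMIs, or 3.57 and 3.13 CPM, which did not differ detectably. That splenic bound was 0.97 without the 5% of cells richest in UMIs and 0.48 with 2 UMIs of the CD8 genes asked for.

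Ordered by level in cells with CD8 RNA, Rgs1 was highest in the splenic library labelled Pdcd1 cKO (401 CPM), then in the thymic one of that label (188), which overlapped the splenic library labelled Pdcd1fl/fl (183). The tumor library labelled Pdcd1 cKO (91.3) stood above its partner (62.7), which overlapped the thymic library labelled Pdcd1fl/fl (54.2). For Rgs2 the thymic and splenic libraries labelled Pdcd1 cKO (370.1 and 366) overlapped at the top, above the splenic (286), thymic (179) and tumor (163) libraries labelled Pdcd1fl/fl, the last 2 of which overlapped, and the tumor library labelled Pdcd1 cKO (118) was lowest. Rgs16 had the tumor library labelled Pdcd1 cKO (70.0) first, then the splenic one of that label (51.5), which overlapped the other tumor library (43.3). Below them stood the thymic library labelled Pdcd1 cKO (22.3) and then the splenic and thymic ones labelled Pdcd1fl/fl (5.07 and 4.10), which overlapped. Rgs10 was highest in the splenic library labelled Pdcd1fl/fl (339.7), then at like levels in its partner (215) and both thymic libraries (210.1 and 203), and lowest in the tumor (49.3 and 28.4). In the stricter tumor cells Rgs1 (105 and 106) stood above the thymic library labelled Pdcd1fl/fl in both libraries, Rgs2 under the Pdcd1fl/fl label (265) overlapped the splenic library of that label, and Rgs16 (73.9 and 91.3) stood above every other library.

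Of the remaining members, Rgs3, Rgs14 and Rgs19 had 1 library or tissue apart from a run of overlapping neighbors, and Rgs11 had 2 libraries apart. Rgs3 stood at 45.1 CPM in the splenic library labelled Pdcd1 cKO, and each of the other 5 (23.9 to 13.6) overlapped its neighbor, though the stricter tumor cells labelled Pdcd1fl/fl (7.55) stood below the rest. Rgs14 had the same library first (23.2), with the others between 11.6 and 3.60 and each overlapping the next. Rgs19 was at 66.5 and 64.5 in the spleen, above 43.0 and 36.6 in the thymus and 30.8 and 29.4 in the tumor, where neighbors overlapped. Rgs11 ran from 35.1 in 1 tumor library to 6.01 in the splenic library labelled Pdcd1 cKO and 1.97 and 1.09 in the thymus, which overlapped, and 2 libraries at 0, whose upper limits were 2.67 (spleen labelled Pdcd1fl/fl) and 0.521 (tumor labelled Pdcd1 cKO).

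Between tissues, a gene was counted when both libraries of a tissue were at least 2-fold from both of the other. Of the members, 0 of 8 met this between spleen and thymus, beside 11.6% of 11892 genes. With 1 library per tissue, a choice made after seeing the data, 1 of 5 members (Rgs1) was 2-fold higher in the spleen by the libraries labelled Pdcd1fl/fl, beside 34.1% of 7981 genes in either direction. By those labelled Pdcd1 cKO it was 5 of 8, beside 22.0% of 11416. Between tumor and spleen 2 of 7 members (Rgs10 and Rgs19) were lower in the tumor, beside 36.5% of 12248 genes. Rgs14 joined them in the stricter cells, beside 40.4% of genes, while with all deposited barcodes the 2 were Rgs10 and Rgs14, beside 37.6%. With 1 library per tissue, Rgs1, Rgs10 and Rgs19 were lower and Rgs11 and Rgs16 higher in the tumor under the Pdcd1fl/fl label, beside 55.0% of 9047 genes. Under the Pdcd1 cKO label 6 were lower (Rgs1, Rgs2, Rgs3, Rgs10, Rgs14 and Rgs19), beside 56.0% of 10950. By the mean of their libraries, 6 members (Rgs1, Rgs2, Rgs3, Rgs10, Rgs14 and Rgs19) ran from spleen over thymus to tumor, and 2 (Rgs11 and Rgs16) from tumor over spleen to thymus. The order changed for Rgs2, Rgs3 and Rgs11 without the libraries labelled Pdcd1fl/fl, for Rgs1 and Rgs11 without those labelled Pdcd1 cKO and for Rgs3 and Rgs14 after thinning.

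The rest of the family was sparse. Over all filtered cells the members had 8783 (Rgs1), 15184 (Rgs2), 1235 (Rgs3), 7594 (Rgs10), 422 (Rgs11), 510 (Rgs14), 1602 (Rgs16) and 2200 (Rgs19) UMIs, sums that depend on gene length and depth as well. Rgs6, which like Rgs11 pairs with beta 5, had 399, with 63 of 117 UMIs of the splenic library labelled Pdcd1 cKO in 1 cell. Rgs22 had 252, Rgs20 246, Rgs12 207, Rgs7 143, Rgs17 94, Rgs18 92, Rgs8 56 and Rgs7bp, an anchor of the beta 5 group, 54. Of these, Rgs8 had 24 and 21 UMIs in tumor cells with CD8 RNA and at most 5 in any thymic or splenic library, and Rgs20 had 25 of its 49 UMIs in 1 cell of the tumor library labelled Pdcd1fl/fl. Rgs9, Rgs21, Rgs13, Rgs5, Rgs9bp and Rgs4 had 46, 46, 12, 7, 5 and 2.

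Of receptors that signal through G proteins, 3 of 25 counted in the thymus were higher under the Pdcd1 cKO label and 0 lower, with a median log2 ratio of 0.63. All 10827 genes gave 398 higher and 552 lower and a median of -0.17, but 656 higher and 248 lower with median-of-ratios scaling. Cxcr6, a chemokine receptor of resident effector T cells, went from 4.92 to 21.7 CPM, a ratio of 2.14. The lowest were Cx3cr1, a receptor of effector cells, from 13.1 to 9.40, and Cxcr5, which leads cells to follicles, from 15.3 to 10.98, both with ratios of -0.48. In the spleen 8 of 27 receptors were higher and 0 lower, with a median of 0.30, beside 747 and 130 of 9074 genes and a median of 0.18. Ccr10 went from 1.45 (2 UMIs) to 6.69, a ratio of 2.21 (0.28 to 5.29). P2ry10 went from 157 to 103 and S1pr1, the receptor that lets T cells leave lymphoid organs, from 177 to 122, ratios of -0.61 and -0.53.

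Tumor receptors were mixed, 3 of 18 higher and 2 lower with a median of 0.28. Beside them 495 and 844 of 10435 genes were higher and lower, with a median of -0.16. With median-of-ratios scaling all genes gave 609 higher and 597 lower. In the stricter cells 0 of 15 receptors were higher and 3 lower, beside 8.74% of genes in either direction. Ccr2 went from 2.25 to 7.21 CPM, a ratio of 1.68. Ccr2 belongs also to the macrophage list, which was higher in the same library. Ccr7 went from 203 to 48.6, a ratio of -2.06, and Cxcr4, a receptor of the bone marrow chemokine Cxcl12, from 11.5 to 5.65, a ratio of -1.03.

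Of the G protein subunits, the targets of these regulators, 2 of 17 were higher in the thymus and 0 lower (median -0.20). In the spleen 0 of 16 were higher and 1 lower (median -0.04), and in the tumor 2 of 21 higher and 3 lower (median -0.21). Beside these stood 8.77%, 9.66% and 12.8% of all genes, in the same order and in either direction. Most ratios of the receptors, subunits, other regulators and effectors are given without intervals, so whether they exceed counting error is not shown. In cells with CD8 RNA labelled Pdcd1fl/fl, 3 UMIs came to 0.821 CPM in the thymus and 2.17 in the spleen. Low levels there thus rest on few UMIs. Gna15, an alpha chain of the Gq family, went from 2.74 to 6.16 CPM in the thymus, a ratio of 1.17, and from 5.79 to 10.6 in the spleen, a ratio of 0.88. The gamma chain Gng2 went from 12.3 to 25.6 in the thymus, a ratio of 1.06, and from 65.7 to 138 in the tumor, a ratio of 1.07. Another gamma chain, Gng7, was among the lowest in each tissue, from 10.1 to 7.03 in the thymus (-0.53), from 13.0 to 6.01 in the spleen (-1.12) and from 17.8 to 6.64 in the tumor (-1.43). Gngt2, also a gamma chain, went from 63.5 to 41.3 in the thymus (-0.62) and from 6.45 to 19.8 in the tumor (1.62), and Gng12 from 11.6 to 7.78 in the spleen (-0.57). Gna11, of the Gq family, went from 6.52 to 10.8 in the spleen (0.73) and from 27.6 to 8.90 in the tumor (-1.63). Tumor values of the subunits, other regulators and effectors between labels came from all cells with CD8 RNA, not the stricter ones. Those cells carried melanoma RNA, less of it under the Pdcd1 cKO label, and its part in these values was not tested.

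Other regulators of the same receptors and subunits include kinases and arrestins that switch receptors off. They had 0 higher and 1 lower of 10 in the thymus (median -0.26), beside 8.77% of all genes in either direction. It was 1 higher and 0 lower of 9 in the spleen (median 0.27), beside 9.66%, and 0 of 9 in the tumor (median -0.19), beside 12.8%. Gipc1, an adaptor that binds Rgs19, went from 15.3 to 5.05 CPM in the thymus, a ratio of -1.60, and from 2.90 to 8.87 in the spleen, a ratio of 1.62. Its 2 ratios thus had opposite signs. Arrb1, an arrestin, went from 10.1 to 5.92 in the thymus (-0.77) and from 12.7 to 8.62 in the tumor (-0.56), and Arrb2 from 19.2 to 29.1 in the tumor (0.60). Receptor kinase Grk5 went from 4.92 to 6.32 (0.36) in the thymus, from 10.9 to 15.4 (0.51) in the spleen and from 5.40 to 3.11 (-0.80) in the tumor. Grk6 went from 101 to 74.5 (-0.43) and Ric8b, a chaperone of alpha chains, from 18.1 to 16.4 (-0.14) in the spleen, while Gpsm1 and Gpsm3, which bind inactive Gi like Rgs14, went from 6.84 to 12.3 (0.85) in the thymus and from 27.0 to 38.9 (0.53) in the tumor.

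Effectors downstream had 1 of 23 higher in the thymus (median 0.05), beside 8.77% of all genes in either direction. In the spleen 1 of 22 was higher (median 0.03), beside 9.66%, and in the tumor 0 of 20 (median -0.02), beside 12.8%. Lower effectors numbered 0 in each tissue. Pde4a, which breaks down cyclic AMP, was the thymic one, from 0.821 (3 UMIs) to 18.7 (237 UMIs) CPM, a ratio of 4.51 (2.95 to 6.80), and Pde3b, of the same function, went from 81.8 to 129.6 (0.66). Plcb4, a phospholipase C that Gq drives, was the splenic one, from 2.17 (3 UMIs) to 12.7 (93 UMIs), a ratio of 2.55 (0.96 to 4.85). Subunits of protein kinase A varied, with Prkacb from 27.5 to 43.8 (0.67) in the spleen, Prkar1a from 238 to 191 (-0.32) in the thymus, and Prkaca from 26.1 to 15.1 (-0.79) and Prkar2a from 12.0 to 23.5 (0.97) in the tumor. Adcy7, an adenylyl cyclase, went from 73.9 to 57.6 (-0.36) in the spleen and from 10.5 to 14.7 (0.49) in the tumor. Pik3cg, the catalytic chain of PI3 kinase gamma, went from 16.7 to 11.2 (-0.57) in the spleen, its partner Pik3r6 from 10.3 to 6.50 (-0.67) in the tumor, and the small GTPase Rap1a from 99.9 to 78.7 (-0.34) in the thymus.

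Between tissues the same lists gave, for spleen over thymus, 1 higher and 0 lower of 19 subunits, 0 and 0 of 10 other regulators, 6 and 3 of 28 receptors and 0 and 2 of 25 effectors, beside 450 and 927 of 11892 genes. For tumor over spleen it was 5 and 1 of 21 subunits, 2 and 6 of 11 other regulators, 1 and 16 of 27 receptors and 1 and 12 of 25 effectors, beside 1691 and 2776 of 12248 genes. With the stricter cells it was 4 and 2 of 19 subunits, 1 and 4 of 11 other regulators and 3 and 13 of 26 receptors. Effectors gave 1 and 12 of 23 there, beside 841 and 3480 of 10695 genes. Receptors and effectors past the mark were thus mostly lower in the tumor in both sets, and among all genes more were lower than higher too.

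Genes whose pattern was most like that of a member were found by Pearson's r of log2 levels over 23 points, each a group of cells of a library (with or without CD8 RNA, and by Ccl5 or Ccr7), among 8320 genes with at least 500 UMIs. The points share libraries and cells, so r is a description. Rgs16 went with Cxcr6 (r of 0.873), Prf1, which encodes perforin (0.872), and Lag3 (0.858). Rgs1 went with Tgfb1, a cytokine that restrains T cells (0.917), Fasl, a death ligand (0.904), and Gvin1 (0.898). Rgs2 went with Bcl2l11, which encodes the death protein Bim (0.915), Dennd4a (0.905) and Mir142hg, the host of a microRNA of blood cells (0.897). Rgs10 went with S1pr1 (0.956), Plcxd2 (0.955) and Rnf145 (0.952). Rgs14 went with Pim2 (0.921), Irf2bpl (0.916) and Grap (0.908), and Rgs19 with Mepce (0.894), Thap3 (0.892) and Nfkbiz (0.880). Rgs3 went with the plasma cell genes Igkc (0.866) and Jchain (0.865) and with Nfkbia (0.853), and Rgs11 had under 500 UMIs.

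On the genome (GRCm39, GENCODE annotation), mouse chromosome 1 holds 11 of the 23 family genes and 3 of the members, the ones with the largest thymic ratios. Rgs2 (ENSMUSG00000026360) lies at chr1:143875076-143879899 and Rgs1 (ENSMUSG00000026358) at chr1:144118034-144124980, both on the minus strand, with Rgs13 between them at distances of 134 and 64.9 kb. Rgs21 and Rgs18 follow after 267 and 185 kb, so a run of 5 family genes stands together. These neighbors of Rgs1 and Rgs2 had few UMIs (12 for Rgs13, 46 for Rgs21 and 92 for Rgs18). Rgs16 (ENSMUSG00000026475) lies far from them at chr1:153616091-153621228 on the plus strand, 40.02 kb after Rgs8.

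The other members lie on 5 other chromosomes. Rgs3 (ENSMUSG00000059810) is at chr4:62478084-62622238, Rgs14 (ENSMUSG00000052087) at chr13:55517258-55535857 and Rgs11 (ENSMUSG00000024186) at chr17:26421904-26430829, all on the plus strand. Rgs10 (ENSMUSG00000030844) is at chr7:127975345-128020482 and Rgs19 (ENSMUSG00000002458) at chr2:181330212-181335997, both on the minus strand. Rgs11 shares 39 exon bases with Fam234a on the other strand and 138 with Arhgdig.

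**Figure D4:**
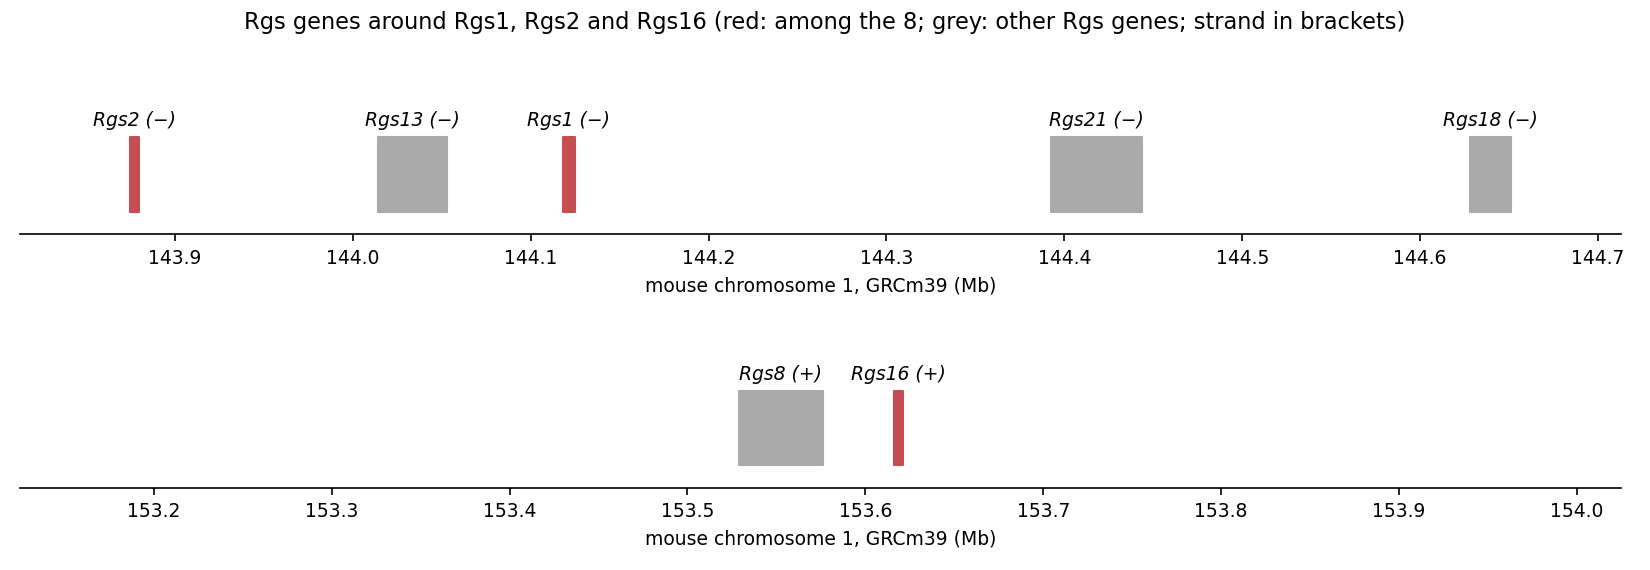
Map of the Rgs genes around Rgs1, Rgs2 and Rgs16 on mouse chromosome 1 (GRCm39, horizontal axis in megabases), with each gene drawn to scale as a box, members in red and other Rgs genes in grey. Rgs13 lies between Rgs2 and Rgs1, and Rgs8 lies 40.02 kb before Rgs16.

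The 250 bases before each of the 8 genes were searched on both strands for TGANTCA (AP-1), TGACGTCA (the cyclic AMP response element) and GGAAAA (the core of the NFAT motif), which 6.46%, 1.31% and 22.8% of the windows of 21757 protein-coding genes hold. Added after the first search were TGACGT, which lies inside TGACGTCA (5.95%), and GGGCGG, the GC box (29.9%). Rgs1 had 1 GGAAAA, 197 to 192 bases before the gene. Rgs2 had 4 GC boxes and 1 TGACGT, all on the other strand and so read CCGCCC and ACGTCA, and Rgs16 had 2 GC boxes there that share 1 base. Rgs3, Rgs10, Rgs11, Rgs14 and Rgs19 had no match in their windows. The windows of Rgs1, Rgs2 and Rgs16, shown because these genes were at least 2-fold higher in the thymic library labelled Pdcd1 cKO, and that of Rgs10, which was lower in spleen and tumor, are given 5′ to 3′ on the strand of the gene from GRCm39, with matches in capitals: chr1:144124981-144125230 (minus) for Rgs1, chr1:143879900-143880149 (minus) for Rgs2, chr1:153615841-153616090 (plus) for Rgs16 and chr7:128020483-128020732 (minus) for Rgs10.
Rgs1: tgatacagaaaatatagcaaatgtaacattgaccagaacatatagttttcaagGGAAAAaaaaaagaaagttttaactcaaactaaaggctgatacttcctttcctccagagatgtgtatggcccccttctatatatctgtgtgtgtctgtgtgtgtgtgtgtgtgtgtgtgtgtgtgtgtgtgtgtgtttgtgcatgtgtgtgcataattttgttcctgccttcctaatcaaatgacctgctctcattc
Rgs2: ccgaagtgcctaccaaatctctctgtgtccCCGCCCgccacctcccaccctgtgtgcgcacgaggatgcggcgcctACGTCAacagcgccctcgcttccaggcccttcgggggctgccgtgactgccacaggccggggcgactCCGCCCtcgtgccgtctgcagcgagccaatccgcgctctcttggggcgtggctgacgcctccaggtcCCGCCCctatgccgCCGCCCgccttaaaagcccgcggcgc
Rgs16: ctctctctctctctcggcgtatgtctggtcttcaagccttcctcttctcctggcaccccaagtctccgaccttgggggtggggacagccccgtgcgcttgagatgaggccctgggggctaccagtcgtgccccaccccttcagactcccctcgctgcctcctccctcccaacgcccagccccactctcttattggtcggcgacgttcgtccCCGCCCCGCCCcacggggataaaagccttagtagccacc
Rgs10: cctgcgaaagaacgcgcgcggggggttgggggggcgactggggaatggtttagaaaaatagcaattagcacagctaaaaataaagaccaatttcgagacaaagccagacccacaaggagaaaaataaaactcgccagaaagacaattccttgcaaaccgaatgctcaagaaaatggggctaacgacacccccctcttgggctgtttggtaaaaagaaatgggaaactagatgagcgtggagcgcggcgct

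Their G and C content was 38.4% for Rgs1, 71.2% for Rgs2, 64.8% for Rgs16 and 49.2% for Rgs10, beside a median of 51.2% over all windows. Rgs1 and Rgs2, which both were higher in the thymic and splenic libraries labelled Pdcd1 cKO, thus shared none of the matched motifs, and a match is a description of letters, with no measure of binding. The annotation puts an exon of the noncoding Gm70884 in the window of Rgs2 and one of the antisense Gm28513 in that of Rgs16.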

How the data were processed

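PIPseq v3 libraries of 6 samples were measured. The authors ran the PIPseq pipeline against GRCm39, with Seurat 4.3.0 named for later steps, and deposited raw UMI counts per gene and barcode, with whole numbers in each matrix. The annotation release was not given. Genes were joined across libraries by Ensembl identifier, since the tumor files list part of them in another order. The cell filter of the study was applied again (500 genes, 1000 UMIs, 20% of UMIs from 13 mitochondrial genes), and no doublets were removed.

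UMIs were summed over the cells of a group and divided by all UMIs of those cells. Levels carry exact Poisson intervals, log2 ratios exact conditional binomial intervals and shares Clopper-Pearson intervals, at 95%. A count of 0 was set to 3 UMIs for a bound. Genes with at least 50 UMIs in a comparison were counted when 2-fold apart. Groups of cells needed 20 cells. The steps were tested on simulated data. Positions and sequences came from GENCODE and GRCm39. Python 3.11.15, numpy 2.4.6, scipy 1.17.1 and matplotlib 3.10.9 were used.

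Genes named are Pdcd1, the members, family genes with at least 50 UMIs, genes that define groups, the 2 highest and 2 lowest ratios of each pathway list per tissue, the most abundant gene of each cell type list and the 3 genes most like each member. Some genes that this rule takes are not reported here. Family genes under 50 UMIs, Hspa1a, Fam234a, Arhgdig, and the genes found in 1 tumor library and not the other were named after their values were seen. The members and lists were chosen with earlier results of these data known. Alternatives covered the filter, the CD8 rule, the scaling (a total without abundant RNAs, and median of ratios), depth, cells of highest UMIs, the cell richest in a gene, the UMI minimum, the fold and the genes of the Ccl5 and Ccr7 split.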

Additional observations from a re-analysis of the deposited data

Results flagged for a closer look

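Rgs2 and Rgs11 moved in opposite directions between labels by tissue. Rgs2 had log2 ratios of 1.04 in the thymus, 0.36 in the spleen and -0.47 in the tumor, so the library labelled Pdcd1 cKO was higher in the first 2 tissues and lower in the third. In cells with CD8 RNA, Rgs11 had a ratio of at least 1.47 in the spleen and of at most -6.37 in the tumor, each against a library with 0 UMIs in those cells. Splenic cells without CD8 RNA held 3.57 and 3.13 CPM (3 and 5 UMIs), a ratio of -0.19 (-2.55 to 2.49), so no difference was detectable there. With 1 library per group, the difference between tissues was not tested.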

How the results depend on the processing

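Of 167 planned ratios between labels, 141 stayed within the counting interval of the reported value, 26 moved beyond it and 0 turned a ratio past 2-fold, with at least 50 UMIs, around. Of 135 ratios between labels in groups and settings chosen after seeing the data, 96 stayed and 39 moved. Of 227 ratios between cells with and without CD8 RNA, 202 stayed and 25 moved. The Ccl5 and Ccr7 split gave 208 values, of which 179 stayed and 28 moved, while 1 ratio past 2-fold with at least 50 UMIs crossed 0, Rgs10 in the thymic library labelled Pdcd1 cKO, at 0.01 (-0.20 to 0.21) with Nkg7 and Lef1 in place of Ccl5 and Ccr7, a value with no direction. Among the moved ratios with fewer UMIs was Rgs16 in the thymic library labelled Pdcd1fl/fl, at -1.14 with an interval that held 0. With Nkg7 and Lef1 it was 8.01-fold higher (log2 interval 1.04 to 5.50). The richest cell held 5 of the 10 UMIs of the higher group in each split. Shares of cells moved in 6 of 48 cases with another random draw of the thinning, among them Rgs2 in the tumor library labelled Pdcd1fl/fl, at 19.2% in place of 13.95%. They moved in 43 of 48 cases without thinning, which lets deeper cells show more genes.

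Groups of cells within a library gave further values in settings chosen after seeing the data. Without the cell richest in the gene on each side, 565 of 574 ratios stayed, 9 moved and 0 of those past 2-fold, with at least 50 UMIs, crossed 0. Splits of the tumor libraries by Cd69, Nr4a1 and cycling genes were repeated in the stricter cells, where 28 of 45 ratios stayed, 13 moved and 4 past 2-fold, with at least 50 UMIs, crossed 0, all by Nr4a1. Under the Pdcd1fl/fl label these were Rgs2 at 0.15 (-0.08 to 0.38), Rgs3 at -0.53 (-2.51 to 1.01) and Rgs16 at 0.06 (-0.39 to 0.50), and under the other Rgs1 at 0.23 (-0.13 to 0.58). Their intervals held 0, so the differences were gone and no opposite ones were detectable.

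Members 2-fold apart in the spleen became 5 of 7 at 1.5-fold, beside 26.7% of all genes, and 1 at 3-fold, beside 2.74%. In the tumor they became 5 of 8 at 1.5-fold, beside 32.1%, 3 in the stricter cells, beside 8.74%, and 0 of 3 after thinning, beside 6.06%. Between tumor and spleen the count was 4 of 7 with a total free of mitochondrial, ribosomal and Malat1 counts, beside 36.9%. Alternatives chosen after seeing the data left out libraries. Without those labelled Pdcd1 cKO the count was 1 of 5 for spleen over thymus, beside 34.1% of genes, and 5 of 7 for tumor over spleen, beside 55.0%. Without those labelled Pdcd1fl/fl it was 5 of 8, beside 22.0%, and 6 of 7, beside 56.0%. These counts ask less of a gene, since 1 comparison is made in place of 4. The order of the tissues held for 5 of 8 members without the libraries labelled Pdcd1fl/fl, for 6 without those labelled Pdcd1 cKO and for 6 after thinning. The cause of the other changes was not tested.

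Each group held 1 library, so labels were compared within each tissue alone, and no analysis paired by tissue was run. Cells of a library are not replicates, so differences between mice, batches and libraries cannot be told apart from the label. Members with few UMIs, Rgs11 and Rgs14 above all, are limited by depth, and a difference under their intervals could not be seen.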

Other observations

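In the other direction from Rgs11, few genes were found in the tumor library labelled Pdcd1 cKO and all but absent from its partner. Of 2439 genes with at least 300 UMIs there, 3 had at most 1 UMI in the library labelled Pdcd1fl/fl. Gm47854 had 3000 UMIs in 517 of 561 cells (92.2%) and 0 in the partner library, so it alone was spread over many cells as Rgs11 was. Iglc2 had 1462 of its 1503 UMIs in 1 cell, and Olfr522 had all 432 in 1 cell. These genes were chosen after their values were seen.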
